A study of Mus musculus with 18 samples.

Results

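10 genes of the Notch pathway were followed through ovulation in mouse cumulus and mural granulosa cells. They are the ligand genes Jag1 and Jag2, the receptor genes Notch1, Notch2 and Notch3, and the target genes Hey1, Hey2, Heyl, Hes1 and Nrarp. They were taken by name from a table of 41325 genes, and all 10 members were found and passed the filter on low counts. Cumulus cells surround the oocyte, and mural granulosa cells line the wall of the follicle. RNA was taken from ovaries of WT mice 0, 4 and 12 h after hCG, a hormone that acts on the luteinizing hormone receptor and triggers ovulation. The 6 groups were cumulus cells at 0, 4 and 12 h and mural granulosa cells at 0, 4 and 12 h, with 3 libraries each and 18 in all. The sources used here give no strain, age, hormone dose or number of animals behind a library. Groups follow the library titles, since the cell-type field of the labels names mural cells for nearly all cumulus titles.

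In Notch signalling a ligand on the surface of a cell binds a receptor on its neighbour. The receptor is then cut, and its inner part enters the nucleus, where it joins the DNA-binding protein RBPJ and switches on targets. Many of these targets, such as the HEY and HES proteins, are themselves repressors of transcription. In the follicle the pathway is known for its part in contact between oocyte, granulosa cells and vessels.

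The libraries held between 32.2 and 47.9 M counts of uniquely mapped reads. Levels are given as CPM, the count per M counts of a library after trimmed-mean scaling of its total. Log2 changes are ± SE from edgeR's quasi-likelihood test, and a gene passed at an adjusted p under 0.05 over the 19941 genes tested. The summed level of 4 mural markers (Lhcgr, Nppc, Cd34 and Cyp11a1) separated the cell types, at 31.4 to 76.1 CPM in cumulus and 1510 to 1700 CPM in mural libraries of 0 h. The granulosa markers were present in every group. Of the cumulus markers, Pfkp was higher in cumulus than mural libraries at 0 h (208 to 274 and 56.6 to 66.4 CPM), while Amh and Slc38a3 were not called then. At 4 h Slc38a3 went against the titles, with 8.4 to 21.6 CPM in cumulus and 74.9 to 119 CPM in mural libraries, and Amh was lower in cumulus cells too. Cumulus 0 h replicate 1 stood apart by a mitochondrial share of 12.8%, and cumulus 4 h replicate 3 by the highest sum of 15 oocyte markers, 6350 CPM.

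At 4 h after hCG most members had changed in both cell types. In cumulus cells 8 of 10 rose and 2 fell against 0 h, beside 25.0% and 22.8% of all genes tested. In mural cells 6 of 10 rose and 1 fell, beside 22.8% and 22.3%. The median log2 change of the members was 1.74 in cumulus and 0.99 in mural cells, against 0.13 and -0.06 over all genes. Jag1, Notch1, Notch2, Hey1, Heyl and Hes1 rose and Hey2 fell in both. Without the 2 cumulus libraries that stood apart, 8 members passed in cumulus cells. In bulk RNA, fewer cells of a type and less RNA per cell cannot be told apart.

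**Figure D1:**
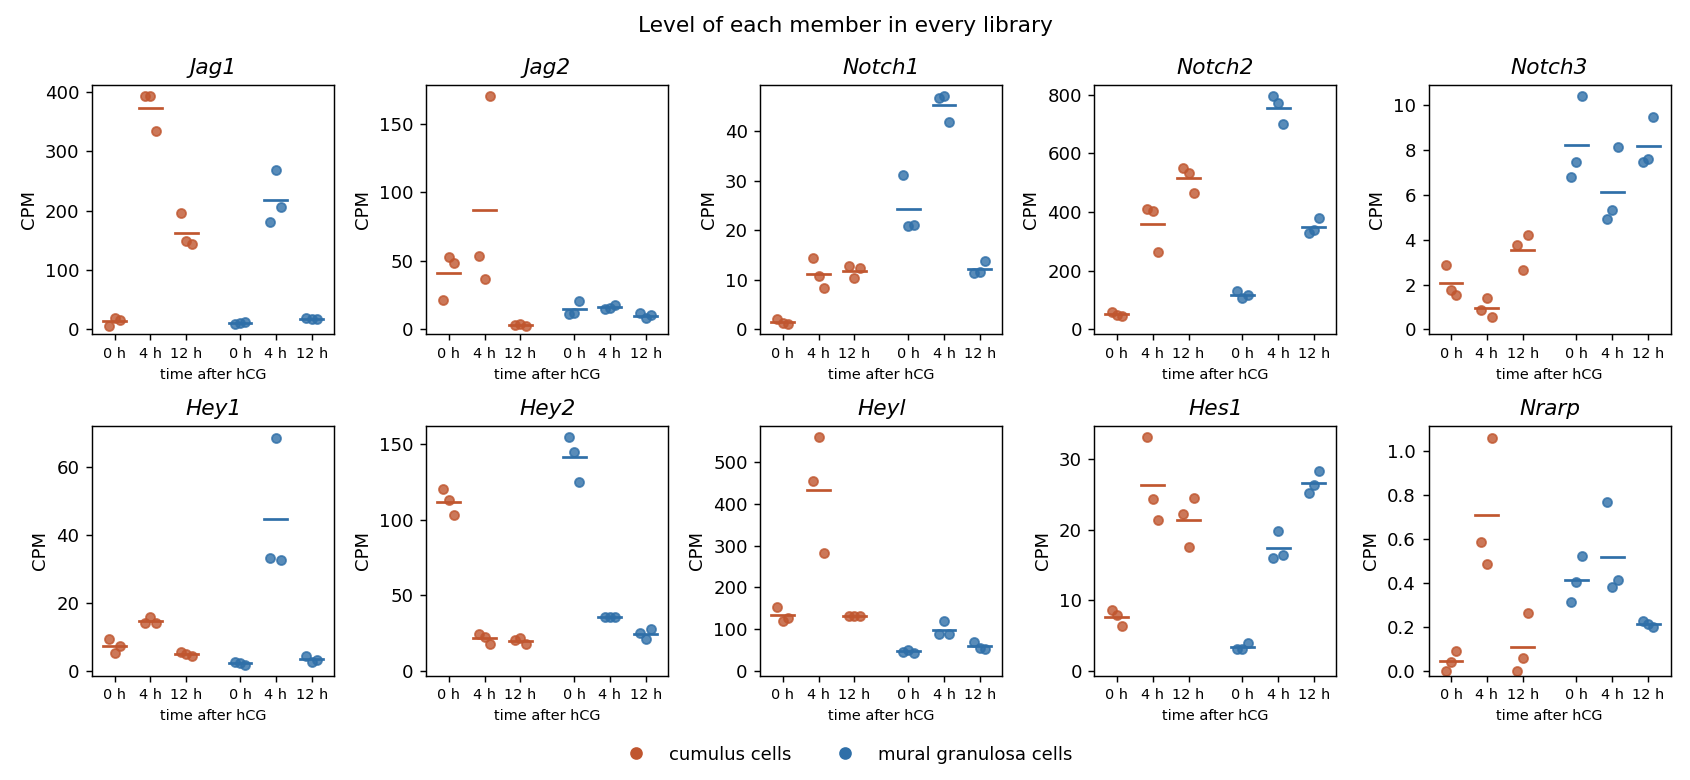
Level of each member in CPM, with 1 point per library and a bar at the mean of 3 libraries, for cumulus cells (left) and mural granulosa cells (right) at 0, 4 and 12 h after hCG. Jag1 and Notch2 were high at 4 h in both cell types, and Hey2 was high at 0 h in both.

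Jag1 (chromosome 2, 137081456 to 137116644, minus strand, GRCm38, protein-coding), a membrane-bound ligand, rose more steeply than Jag2. Jag1 had 6.03, 19.5 and 15.7 CPM in cumulus libraries of 0 h, those of 4 h had 392, 392 and 334 CPM, and those of 12 h had 196, 148 and 143 CPM. Jag1 levels in mural libraries of 0 h were 9.29, 10.2 and 13.1 CPM, those of 4 h 181, 268 and 206 CPM and those of 12 h 18.6, 17 and 18.3 CPM. No library of 4 h overlapped one of 0 h or 12 h of the same cell type. At 4 h Jag1 was 27-fold above 0 h in cumulus cells (log2 4.75 ± 0.32, adjusted p = 1.43e-09 by edgeR) and 20.1-fold above in mural cells (4.33 ± 0.31, adjusted p = 4.02e-09). The test of the difference between those rises was not passed (0.43 ± 0.39, adjusted p = 0.486 by edgeR).

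By 12 h the cell types had parted. Jag1 stayed 11.8-fold above 0 h in cumulus cells (3.56 ± 0.30, adjusted p = 1.34e-08 by edgeR). In mural cells it was 1.65-fold above 0 h (0.72 ± 0.28, adjusted p = 0.0475), a call that was lost in 8 of 13 alternatives, among them leaving out mural 0 h replicate 1 or 2 or any mural library of 12 h. The difference between the changes, cumulus minus mural, was 2.83 ± 0.40 (adjusted p = 2.81e-05 by edgeR). At 12 h Jag1 averaged 162 ± 28.9 CPM in cumulus and 18 ± 0.873 CPM in mural cells (SD, n = 3 each), a 9.03-fold difference. At 4 h the averages were 373 ± 33 CPM in cumulus and 218 ± 44.8 CPM in mural cells, a call (0.77 ± 0.27, adjusted p = 0.0226 by edgeR) lost in 6 of 14 alternatives, among them leaving out cumulus replicate 1 or 2 or mural replicate 1 or 3. Before hCG they were 13.7 ± 6.93 CPM and 10.9 ± 1.99 CPM, not called (adjusted p = 0.33 by edgeR). Without cumulus 0 h replicate 1, the lowest library, cumulus cells were above mural cells by 0.69 (adjusted p = 0.00557 by edgeR, range 0.00547 to 0.96 over the alternatives). With the summed oocyte markers as a covariate, the log2 differences at 0 and 4 h were -0.19 and -0.022.

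The promoter of Jag1, the ligand with this rise, is shown from 250 bases before the start of the gene to 50 after it (RefSeq, GRCm38.p6, chr2:137116471-137116770, minus strand). Capitals in this and the other promoters mark TGGGAA, the core that RBPJ binds, and CACGTG, an E-box form that HEY and related proteins can bind, on either strand. Neither string lay in the Jag1 window, which is therefore all lower case.
Jag1: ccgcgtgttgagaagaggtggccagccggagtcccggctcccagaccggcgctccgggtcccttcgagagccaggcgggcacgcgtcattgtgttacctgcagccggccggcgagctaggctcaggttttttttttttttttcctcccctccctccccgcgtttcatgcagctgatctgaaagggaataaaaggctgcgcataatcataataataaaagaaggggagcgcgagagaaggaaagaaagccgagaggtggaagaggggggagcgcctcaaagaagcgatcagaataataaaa

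Jag2, the other Jagged ligand (chromosome 12, 112907819 to 112929776, minus strand), varied with the level of oocyte markers. Jag2 had 21.5, 52.7 and 48.8 CPM in cumulus libraries of 0 h, those of 4 h had 53.9, 36.8 and 170 CPM, and those of 12 h had 2.93, 4.16 and 2.64 CPM. The summed level of 15 oocyte markers in the same libraries, whose part in the Jag2 level was tested only as a covariate, was 375, 1700 and 1750 CPM at 0 h, 1990, 1040 and 6350 CPM at 4 h and 9.96, 13.6 and 8.24 CPM at 12 h. The library with the highest oocyte sum had the most Jag2, and the 3 libraries of 12 h had the least of both. Mural libraries held 8.24 to 20.8 CPM of Jag2 over all times, with oocyte sums of 115 to 539 CPM. These markers include the oocyte-secreted factors Gdf9 and Bmp15 and the zona pellucida genes, and in cumulus cells at 12 h Zp1, Figla and Oog1 had no counts.

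**Figure D2:**
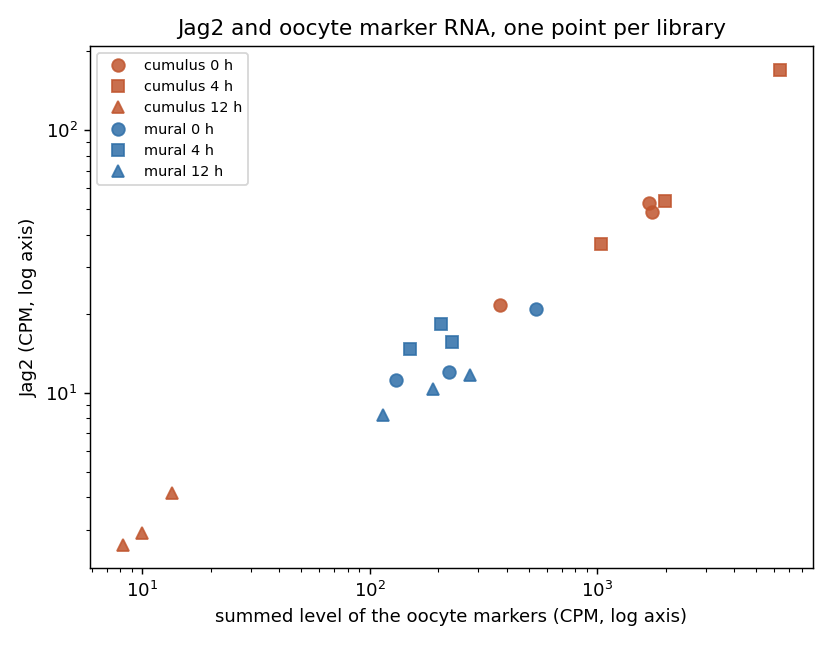
Jag2 in CPM against the summed CPM of 15 oocyte markers, both on log axes, with 1 point per library. The cumulus libraries of 12 h lie lowest, at 2.64 to 4.16 CPM of Jag2, and cumulus 4 h replicate 3 highest, at 170 CPM.

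Jag2 was 12.7-fold lower at 12 h than at 0 h in cumulus cells (-3.66 ± 0.49, adjusted p = 4.63e-06 by edgeR) and 26.8-fold lower than at 4 h (-4.75 ± 0.51, adjusted p = 5.49e-07). With the oocyte sum as a covariate these changes were 0.63 and 0.49 on the log2 scale and did not pass (adjusted p = 0.258 and 0.514 by edgeR, the highest of their 14 alternatives, against lowest values of 4.8e-12 and 1.63e-19). The cumulus libraries of 12 h had the lowest oocyte sums of all, so this covariate and that group can hardly be separated. This limit holds for each 12 h value with the covariate, here and below. At 4 h Jag2 passed against 0 h (1.08 ± 0.43, adjusted p = 0.0482) although the groups overlapped, and 11 of 14 alternatives lost the call, among them leaving out any cumulus library of 0 h. Without cumulus 4 h replicate 3 the change from 4 to 12 h was -3.84, and that from 0 to 4 h 0.14, the second being -0.16 when cumulus 0 h replicate 1 was left out too. In mural cells Jag2 averaged 14.7 ± 5.32 CPM at 0 h, 16.2 ± 1.79 CPM at 4 h and 10.1 ± 1.76 CPM at 12 h (SD, n = 3 each), and no time differed past the threshold.

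Between the cell types Jag2 was 2.8-fold higher in cumulus than mural cells at 0 h (adjusted p = 0.011 by edgeR, lost without cumulus replicate 2 or 3 or mural replicate 1 or 2) and 5.37-fold higher at 4 h (2.43 ± 0.45, adjusted p = 0.000271). Without cumulus 4 h replicate 3 the log2 difference at 4 h was 1.55. With the oocyte covariate those log2 differences were 0.11 and -0.20, not passed. At 12 h it was 3.11-fold lower in cumulus than mural cells (-1.64 ± 0.47, adjusted p = 0.0105 by edgeR), at oocyte sums of 8.24 to 13.6 CPM in cumulus and 115 to 277 CPM in mural libraries. With the covariate it stood at 0.94 (adjusted p = 0.0199 by edgeR), in the other direction.

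Of the 3 receptor members Notch2 was the highest by level per length. Per kb of annotated exon it had 4.78 ± 0.645, 33.4 ± 7.72 and 47.9 ± 4.23 CPM in cumulus cells at 0, 4 and 12 h, and 11 ± 1.07, 70.1 ± 4.62 and 32.3 ± 2.51 CPM in mural cells (SD, n = 3 each). Notch1 had at most 3.17 ± 0.205 CPM per kb, in mural cells at 4 h. Notch3 had at most 1.02 ± 0.237 CPM per kb, in mural cells at 0 h. In each of the 6 groups Notch2 was above the other two on this scale by more than their spread.

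**Figure D3:**
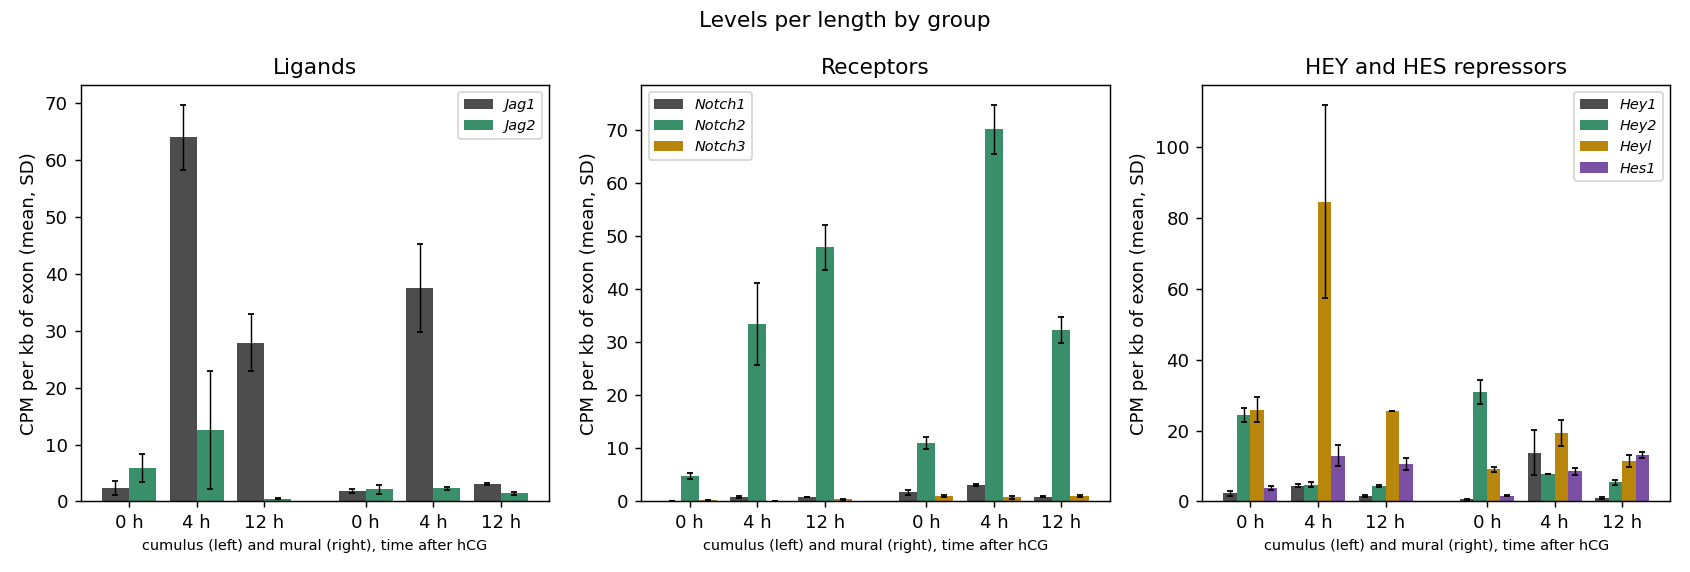
Mean CPM per kb of exon with SD (n = 3 libraries), for the ligands, the receptors and the HEY and HES genes, in cumulus cells (left) and mural cells (right) at 0, 4 and 12 h after hCG. Notch2 exceeded the other receptors shown in each group, and Heyl in cumulus cells at 4 h reached 84.6 CPM per kb.

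Notch2 (chromosome 3, 98013527 to 98150361, plus strand) rose in both cell types at 4 h and was then highest at 12 h in cumulus and at 4 h in mural cells. Notch2 had 59.5, 48.4 and 46.7 CPM in cumulus libraries of 0 h, those of 4 h had 411, 405 and 264 CPM, and those of 12 h had 552, 532 and 465 CPM. Notch2 levels in mural libraries of 0 h were 130, 107 and 118 CPM, those of 4 h 796, 771 and 700 CPM and those of 12 h 328, 338 and 379 CPM. Neither series had any overlap between its times. The 4 h rise was 6.98-fold in cumulus cells (2.80 ± 0.16, adjusted p = 1.5e-10 by edgeR) and 6.38-fold in mural cells (2.67 ± 0.16, adjusted p = 2.47e-10). At 12 h Notch2 was 10-fold above 0 h in cumulus (3.33 ± 0.16) and 2.94-fold above it in mural cells (1.56 ± 0.15), with a difference of 1.77 ± 0.21 (adjusted p = 4.73e-06 by edgeR). From 4 to 12 h it rose in cumulus cells (0.52 ± 0.15, adjusted p = 0.00555) and fell in mural cells (-1.12 ± 0.15, adjusted p = 1.27e-05). The rise in cumulus cells did not pass in a fit of those groups alone (0.46, adjusted p = 0.0786) and turned to -0.56 with the oocyte covariate (adjusted p = 0.268), the range over alternatives being 0.00262 to 0.268.

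Cumulus cells held less Notch2 than mural cells at 0 h (51.5 ± 6.91 and 118 ± 11.2 CPM, SD, n = 3 each) and at 4 h (360 ± 83.4 and 755 ± 49.9 CPM). At 12 h the order had turned, with 517 ± 45.6 CPM in cumulus and 348 ± 27 CPM in mural cells (0.57 ± 0.15, adjusted p = 0.00541 by edgeR). That call was lost with the oocyte covariate, at -0.0041 (adjusted p = 0.993, against 8.5e-06 in the alternative with the lowest). The covariate can hardly be separated from the cumulus group of 12 h.

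Notch1 (chromosome 2, 26457903 to 26516663, minus strand) moved in opposite directions in the cell types by 12 h. Notch1 had 2.16, 1.24 and 1.15 CPM in cumulus libraries of 0 h, those of 4 h had 14.5, 10.7 and 8.34 CPM, and those of 12 h had 12.8, 10.4 and 12.4 CPM. Notch1 levels in mural libraries of 0 h were 31.1, 20.9 and 21 CPM, those of 4 h 46.7, 47 and 41.8 CPM and those of 12 h 11.4, 11.5 and 13.9 CPM. All cumulus libraries of 0 h lay below every other library. At 12 h Notch1 was 7.9-fold above 0 h in cumulus cells (2.98 ± 0.25, adjusted p = 9.64e-09 by edgeR) and 1.98-fold below 0 h in mural cells (-0.99 ± 0.22, adjusted p = 0.00144). The difference between these changes was 3.97 ± 0.33 (adjusted p = 8.64e-08 by edgeR). At 4 h both cell types had risen, by 2.89 ± 0.25 in cumulus and 0.89 ± 0.22 in mural cells, and the rises differed by 2.0 ± 0.32 (adjusted p = 0.000433 by edgeR).

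The gap in Notch1 between the cell types was widest before hCG. Cumulus cells were 16.2-fold below mural cells at 0 h (-4.02 ± 0.26, adjusted p = 2.05e-09 by edgeR) and 4.04-fold below at 4 h (-2.02 ± 0.23, adjusted p = 1.56e-06). At 12 h they averaged 11.9 ± 1.31 CPM, against 12.3 ± 1.39 CPM in mural cells (SD, n = 3 each), and the test was not passed (-0.05 ± 0.22, adjusted p = 0.888). With the oocyte covariate cumulus cells were lower at 12 h (-1.0, adjusted p = 0.0253, range 0.0253 to 1).

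Notch3 (chromosome 17, 32120820 to 32166852, minus strand) is a receptor known from the smooth muscle cells and pericytes of vessels. Of the 3 receptor members it was the lowest per kb in cumulus cells at 4 h (0.116 ± 0.0529 CPM per kb, SD, n = 3). Notch4, which is not a member, averaged 0.7 CPM there and was not put on this scale. Notch3 had 2.89, 1.76 and 1.54 CPM in cumulus libraries of 0 h, those of 4 h had 0.853, 1.4 and 0.556 CPM, and those of 12 h had 3.75, 2.64 and 4.23 CPM. Mural libraries held 6.81 to 10.4 CPM at 0 h, 4.93 to 8.14 CPM at 4 h and 7.44 to 9.47 CPM at 12 h. Cumulus cells were below mural cells at each time without overlap, 4-fold at 0 h, 6.56-fold at 4 h and 2.31-fold at 12 h (adjusted p = 9.08e-05, 6.73e-06 and 0.0063 by edgeR). In cumulus cells Notch3 fell at 4 h (-1.14 ± 0.34, adjusted p = 0.0104) and rose from 4 to 12 h (1.93 ± 0.34, adjusted p = 0.000112), a call lost with the oocyte covariate (0.60, adjusted p = 0.699, range 1.69e-07 to 0.699). The fall was lost without cumulus 0 h replicate 1 (-0.83, adjusted p = 0.0692, range over alternatives 0.00197 to 0.179). The 12 h level passed against 0 h (0.78 ± 0.33, adjusted p = 0.0438) although the groups overlapped, and 9 of 14 alternatives lost it, among them leaving out cumulus 0 h replicate 2 or 3 or cumulus 12 h replicate 1 or 3. In mural cells no time differed past the threshold.

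Markers of vessel cells were measured beside these receptors. The summed level of 10 pericyte and smooth muscle markers was 19.7 to 33.4, 36.9 to 101 and 101 to 115 CPM in cumulus libraries at 0, 4 and 12 h, and 101 to 180, 117 to 195 and 136 to 142 CPM in mural libraries. Of these markers Higd1b had no counts in any cumulus group, and Kcnj8 had none in cumulus cells at 12 h. Of the 10 markers 9 were tested, and 7 were lower in cumulus than mural cells at each time. Pdgfrb at 4 h and Cspg4 at 12 h were higher. Of all 19941 genes tested, 5038, 5375 and 4090 were lower in cumulus cells at 0, 4 and 12 h. The summed level of 10 endothelial markers was 25.6 to 31.8, 29.5 to 55.8 and 167 to 204 CPM in cumulus and 44.2 to 68.5, 66.1 to 79.3 and 137 to 169 CPM in mural libraries, and none was without counts in a group. Single genes carried the sums of cumulus cells at 12 h, Cdh5 (VE-cadherin) with 164 ± 13.2 CPM and the pericyte marker Cspg4 with 82.4 ± 7.94 CPM (SD, n = 3 each). At 12 h against 0 h in cumulus cells 3 endothelial markers were higher (Cdh5, Kdr and Sox17) and 5 lower (Pecam1, Tie1, Vwf, Tek and Egfl7). In mural cells Cdh5 was higher and none of the other 9 was called. The part of vessel cells in the receptor levels was not tested.

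**Figure D4:**
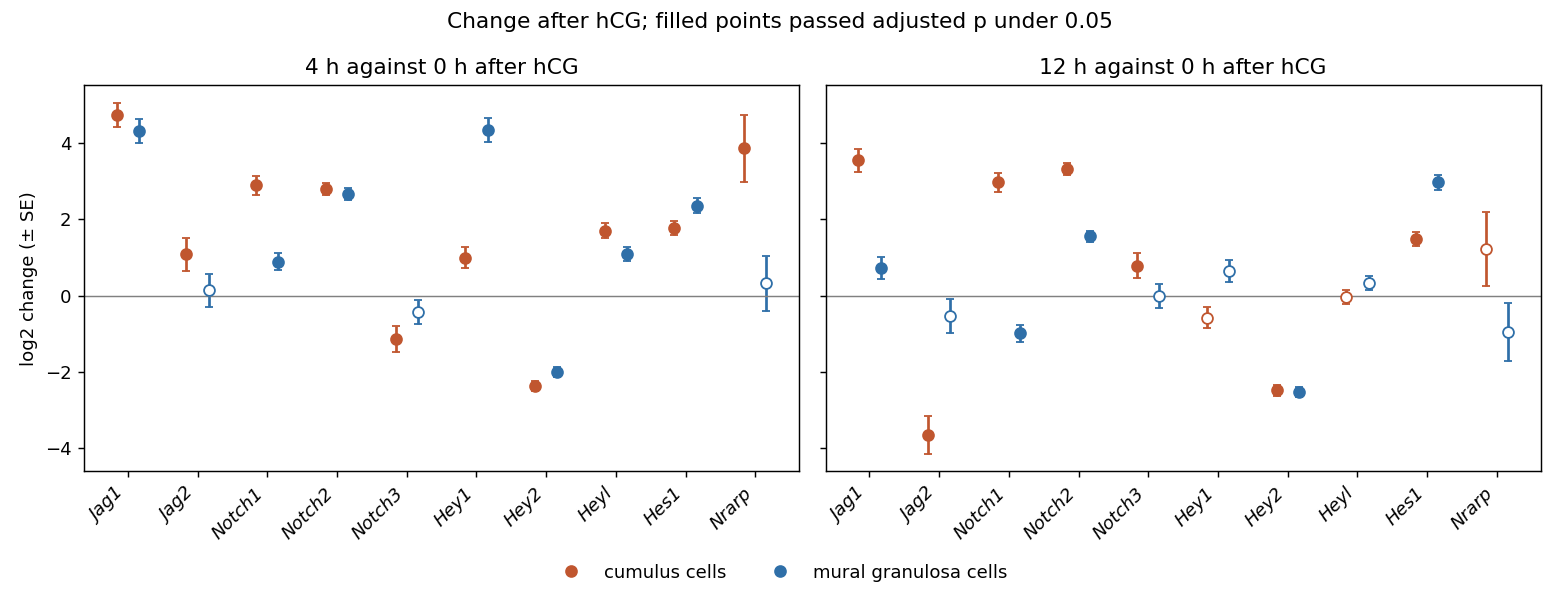
Log2 change ± SE of each member at 4 h (left) and 12 h (right) against 0 h after hCG, in cumulus and mural granulosa cells (n = 3 libraries per group), with filled points for adjusted p under 0.05 by edgeR. At 12 h Notch1 lay at 2.98 in cumulus and -0.99 in mural cells, while Hey2 lay near -2.5 in both.

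The HEY genes, which encode closely related repressors, did not move as a group. Hey1 (chromosome 3, 8663359 to 8667256, minus strand) rose in both cell types at 4 h. Hey1 had 9.42, 5.28 and 7.33 CPM in cumulus libraries of 0 h, those of 4 h had 14.1, 15.8 and 14 CPM, and those of 12 h had 5.62, 4.87 and 4.23 CPM. Hey1 levels in mural libraries of 0 h were 2.58, 2.27 and 1.73 CPM, those of 4 h 33.1, 68.7 and 32.7 CPM and those of 12 h 4.35, 2.67 and 3.24 CPM. In both the libraries of 4 h lay above all others of the cell type. The rise was 2-fold in cumulus (1.0 ± 0.27, adjusted p = 0.00588 by edgeR) and 20.4-fold in mural cells (4.35 ± 0.31, adjusted p = 3.16e-09). Cumulus minus mural, the rises differed by -3.35 ± 0.40 (adjusted p = 2.18e-05 by edgeR), and the result kept its sign and its call in all 20 alternatives. Cumulus cells stood 3.34-fold above mural cells at 0 h and 3.06-fold below them at 4 h (adjusted p = 9.18e-05 and 0.000113). At 12 h Hey1 was not called against 0 h in either cell type (-0.58 ± 0.28 in cumulus and 0.64 ± 0.29 in mural cells, adjusted p = 0.0757 and 0.0878). The cumulus change passed without cumulus 0 h replicate 2 (-0.79, adjusted p = 0.0257), with library totals (-0.82, adjusted p = 0.00933) and in a fit of those groups alone (adjusted p = 0.0436), with a range of 0.00933 to 0.311. The mural change passed in a fit of its groups alone (adjusted p = 0.0383, range 0.0383 to 0.33).

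Hey2 (chromosome 10, 30832359 to 30842801, minus strand) fell early and stayed low. Hey2 had 120, 113 and 103 CPM in cumulus libraries of 0 h, those of 4 h had 24.4, 22.4 and 17.8 CPM, and those of 12 h had 20.1, 21.6 and 18 CPM. Hey2 levels in mural libraries of 0 h were 155, 145 and 125 CPM, those of 4 h 35.6, 35.7 and 35.3 CPM and those of 12 h 25.1, 20.9 and 27.9 CPM. Every library of 0 h lay above every library of 4 or 12 h. The fall at 4 h was 5.19-fold in cumulus (-2.38 ± 0.13, adjusted p = 1.27e-10 by edgeR) and 3.99-fold in mural cells (-2.0 ± 0.13, adjusted p = 9.37e-10). At 12 h it was 5.61-fold in cumulus and 5.75-fold in mural cells, and the test between the cell types was passed at neither time (adjusted p = 0.162 and 0.899). Cumulus cells were below mural cells by 0.34 ± 0.12 at 0 h (adjusted p = 0.0333), a call lost in 5 of 14 alternatives, among them leaving out cumulus replicate 2 or 3 or mural replicate 1 or 2, and by 0.72 ± 0.13 at 4 h (adjusted p = 0.000164), lost with the oocyte covariate (-0.44, adjusted p = 0.101, range 5.98e-07 to 0.101).

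The Hey2 promoter is shown because this gene fell at 4 h, when the other HEY genes rose. It was the only one of the 7 members with a promoter in the RefSeq table that held TGGGAA, a string found in 25.6% of all 32851 windows of this length. Hey1, Heyl and Hes1 had no promoter there, so Hey2 was not compared with another HEY or HES gene. The matches began 207 bases before the start, where the sequence shown holds the reverse complement, and 3 bases before it, as written (chr10:30842734-30843033, GRCm38.p6, minus strand). A match is a description of the letters only.
Hey2: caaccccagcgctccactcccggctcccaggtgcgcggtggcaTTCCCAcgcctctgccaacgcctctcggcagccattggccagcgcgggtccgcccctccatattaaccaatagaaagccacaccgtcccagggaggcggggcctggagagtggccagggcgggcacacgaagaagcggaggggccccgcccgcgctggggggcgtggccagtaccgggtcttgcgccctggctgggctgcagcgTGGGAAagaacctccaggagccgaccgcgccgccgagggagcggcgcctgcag

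Heyl (chromosome 4, 123233556 to 123249875, plus strand) was the HEY gene with the highest level per length in cumulus cells at 4 h, at 84.6 ± 27.3 CPM per kb, against 4.69 ± 0.737 for Hey2 and 4.48 ± 0.31 for Hey1 (SD, n = 3 each). Before hCG Heyl and Hey2 lay at 25.9 ± 3.55 and 24.4 ± 1.86 CPM per kb there, within their spread. In mural cells at 0 h Hey2 led, with 30.8 ± 3.33 against 9.06 ± 0.625 CPM per kb for Heyl. Heyl had 153, 118 and 127 CPM in cumulus libraries of 0 h, those of 4 h had 454, 560 and 283 CPM, and those of 12 h had 131, 130 and 130 CPM. Heyl levels in mural libraries of 0 h were 45.7, 49.8 and 43.5 CPM, those of 4 h 88.9, 120 and 87.1 CPM and those of 12 h 67.9, 54.1 and 52.4 CPM. The rise at 4 h was 3.25-fold in cumulus (1.70 ± 0.19, adjusted p = 1.22e-06 by edgeR) and 2.13-fold in mural cells (1.09 ± 0.19, adjusted p = 0.000156).

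Heyl did not differ past the threshold between 12 and 0 h in either cell type (adjusted p = 0.907 in cumulus and 0.194 in mural cells). It was higher in cumulus than mural cells at each time, 2.87-fold at 0 h, 4.38-fold at 4 h and 2.24-fold at 12 h (adjusted p at most 0.000122 by edgeR), with no overlap. The call of 12 h was lost with the oocyte covariate (0.53, adjusted p = 0.213, range 1.16e-07 to 0.213). The lowest cumulus library of 4 h, replicate 3, was the one with the highest oocyte sum. Without it the rises at 4 h differed between the cell types by 0.89 (adjusted p = 0.00269, with a range of 0.00136 to 0.277 over alternatives), while with all libraries they did not pass (0.61 ± 0.27, adjusted p = 0.137).

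Hes1 (chromosome 16, 30064384 to 30067796, plus strand), a repressor that also cycles by inhibiting itself, rose in both cell types and was the member still rising in mural cells after 4 h. Hes1 had 8.6, 7.92 and 6.41 CPM in cumulus libraries of 0 h, those of 4 h had 33.2, 24.4 and 21.4 CPM, and those of 12 h had 22.3, 17.5 and 24.5 CPM. Hes1 levels in mural libraries of 0 h were 3.12, 3.05 and 3.96 CPM, those of 4 h 16, 19.8 and 16.4 CPM and those of 12 h 25.2, 26.3 and 28.3 CPM. The times did not overlap in mural cells, while 4 and 12 h overlapped in cumulus cells. At 12 h Hes1 was 2.8-fold above 0 h in cumulus (1.49 ± 0.18, adjusted p = 1.14e-06 by edgeR) and 7.87-fold above it in mural cells (2.98 ± 0.19, adjusted p = 6.52e-10), and the changes differed by -1.49 ± 0.25 (adjusted p = 0.000166). The cumulus call was lost with the oocyte covariate (1.12, adjusted p = 0.0741, range 3.12e-14 to 0.0741). From 4 to 12 h it rose by 0.61 ± 0.18 in mural cells (adjusted p = 0.0109), a call lost without mural 4 h replicate 1 (0.56, adjusted p = 0.0503, range 0.000419 to 0.0503). In cumulus cells it stood at -0.30 ± 0.17 from 4 to 12 h and was not called (adjusted p = 0.152), but passed without cumulus 4 h replicate 3 (-0.46, adjusted p = 0.0261, range 0.0261 to 0.691).

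Cumulus cells had more Hes1 than mural cells before hCG, 2.26-fold (1.18 ± 0.18, adjusted p = 4.91e-05 by edgeR), and at 4 h, 1.51-fold (0.60 ± 0.18, adjusted p = 0.00815). The call of 4 h was lost without cumulus 4 h replicate 1 (0.39, adjusted p = 0.0706, range 0.000748 to 0.0706). At 12 h they averaged 21.4 ± 3.6 CPM, against 26.6 ± 1.56 CPM in mural cells (SD, n = 3 each), not called (adjusted p = 0.172).

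Nrarp (chromosome 2, 25180758 to 25183339, plus strand), a feedback inhibitor that binds the Notch complex, was the lowest member. Its counts were 0, 2 and 4 in cumulus libraries of 0 h, 26, 16 and 38 in those of 4 h, and 0, 2 and 10 in those of 12 h. In mural libraries of 0 h the counts were 16, 16 and 24, in those of 4 h 23, 12 and 14, and in those of 12 h 8, 8 and 8. The 4 h libraries were the highest of the cumulus cells, while mural libraries of 0 and 4 h overlapped. A count of 0 in the cumulus libraries allows up to 0.0819 CPM at 0 h and 0.0887 CPM at 12 h, by counting error alone. Among counts from 5 to 20 over all genes 65.1% were even, against 51% of those from 100 to 1000, as would occur if both reads of a pair were counted. If so, a count of 0 allows a higher level than given here. Nrarp rose in cumulus cells at 4 h, to 0.709 ± 0.305 CPM against 0.044 ± 0.0461 CPM at 0 h (SD, n = 3 each; 3.87 ± 0.88, adjusted p = 0.00143 by edgeR), and was lower again at 12 h than at 4 h (-2.65 ± 0.81, adjusted p = 0.0091). Without cumulus 0 h replicate 3 the rise was 4.81, and without cumulus 12 h replicate 3 the later fall was -4.44, while the oocyte covariate took that fall to 0.098. In mural cells it was not called at any pair of times. The 4 h changes differed by 3.55 ± 1.14 (adjusted p = 0.0456), a call lost in 13 of 20 alternatives, 10 of the 12 that left out 1 library (all but cumulus 0 h replicate 3 and cumulus 4 h replicate 2). Being this low, the gene could pass the filter through the groups in which it was high.

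The Nrarp promoter is given as the only one among the 7 that held the E-box form CACGTG, which 7.15% of the windows held (chr2:25180508-25180807, GRCm38.p6, plus strand). The match began 108 bases before the start.
Nrarp: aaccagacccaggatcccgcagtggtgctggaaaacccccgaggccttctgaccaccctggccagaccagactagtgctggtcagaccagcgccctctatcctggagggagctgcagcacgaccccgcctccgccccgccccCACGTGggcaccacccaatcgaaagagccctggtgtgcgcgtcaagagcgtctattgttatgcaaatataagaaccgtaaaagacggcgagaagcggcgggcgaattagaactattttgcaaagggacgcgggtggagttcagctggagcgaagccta

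At 12 h against 0 h fewer members had passed than at 4 h. In cumulus cells 5 of 10 were higher and 2 lower, beside 31.2% and 32.9% of all genes tested. In mural cells 3 of 10 were higher and 2 lower, beside 21.6% and 19.0%. From 4 to 12 h, 2 rose and 5 fell in cumulus cells, beside 29.2% and 31.3%, and 1 rose and 6 fell in mural cells, beside 18.3% and 16.1%. The receptors Notch2 and Notch3 were the members that rose in cumulus cells over that span, and Hes1 the one in mural cells. Jag1, Hey1 and Heyl fell in both, although with the oocyte covariate the cumulus values of Jag1 and Hey1 were 0.55 and -2.22 and did not pass. With the oocyte sum as a covariate 4 members passed in cumulus cells at 12 against 0 h, and 2 at 12 against 4 h.

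Between cumulus and mural cells 9 of 10 members differed at 0 h, beside 46.8% of all genes. At 4 h 9 members differed, beside 54.5%, and at 12 h 5 did, beside 38.5%. Cumulus cells were the higher for 4, 4 and 3 of these members at 0, 4 and 12 h. Heyl was called higher and Notch3 lower in cumulus cells at each time. The changes from 0 h differed between the cell types for 3 members at 4 h, beside 14.0% of all genes. At 12 h they differed for 6 members, beside 40.1%. These comparisons share libraries, so their counts are not independent.

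Of 46 other genes of the pathway, from lists chosen with earlier results of these data known, 44 were tested. Among 6 ligands, receptors and ligand-like genes, 2 rose at 4 h in each cell type and none fell. Of all genes tested 25.0% rose and 22.8% fell then in cumulus cells, and 22.8% and 22.3% in mural cells. At 12 h 3 were higher than at 0 h in cumulus and 2 in mural cells, and none was lower. Of all genes 31.2% were higher and 32.9% lower then in cumulus cells, and 21.6% and 19.0% in mural cells. Dll3, a ligand that acts within the cell, rose at 4 h to 5.66 CPM in cumulus cells, against 0.405 CPM at 0 h (3.78 ± 0.28, adjusted p = 4.9e-09 by edgeR), and to 10.4 CPM in mural cells, against 0.401 CPM (4.68 ± 0.29, adjusted p = 4.63e-10). Dlk1, a non-classical ligand, rose at 4 h by 1.41 ± 0.30 on the log2 scale in cumulus cells (adjusted p = 0.000888) and by 3.66 ± 0.35 in mural cells (adjusted p = 1.54e-07), where it averaged 4.47 CPM at 4 h against 0.353 CPM at 0 h. The classical ligands Dll1 and Dll4, taken up here after their values were seen, averaged at most 1.88 and 1.1 CPM in any group.

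Of 21 genes for ligand handling and receptor processing, 9 rose and 4 fell at 4 h in cumulus cells. The shares of all genes tested were 25.0% and 22.8%. In mural cells 3 rose and 7 fell, beside 22.8% and 22.3%. At 12 h against 0 h 14 were higher and 2 lower in cumulus cells, beside 31.2% and 32.9% of all genes. In mural cells 6 were higher and 2 lower, beside 21.6% and 19.0%. Among those past a log2 change of 1, Psen2, a catalytic subunit of the protease that cuts the receptor, fell in mural cells at 4 h (-1.49 ± 0.25, adjusted p = 0.000111 by edgeR). Neurl1b, a ubiquitin ligase for Notch ligands, fell there too (-2.79 ± 0.44, adjusted p = 5.04e-05). Ncstn, another subunit of that protease, was higher in cumulus cells at 12 h than at 0 h (1.22 ± 0.08, adjusted p = 4.91e-10), as were Numbl, a relative of the inhibitor Numb (1.95 ± 0.11, adjusted p = 4.95e-11), and Fbxw7, which marks the cut receptor for breakdown (1.29 ± 0.13, adjusted p = 9.98e-08).

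Of 19 nuclear factors and other targets 17 were tested, Hes2 and Hes5 being too low. At 4 h 8 rose and 3 fell in cumulus cells, beside 25.0% and 22.8% of all genes tested. In mural cells 8 rose and 5 fell, beside 22.8% and 22.3%. At 12 h against 0 h 14 were higher and 2 lower in cumulus cells, beside 31.2% and 32.9% of all genes. In mural cells 8 were higher and 2 lower, beside 21.6% and 19.0%. The coactivator gene Maml2 rose at 4 h in cumulus (2.86 ± 0.14, adjusted p = 2.27e-11 by edgeR) and mural cells (1.93 ± 0.13, adjusted p = 1.9e-09). Maml3 was higher in mural cells at 12 h, at 50.3 CPM against 8.38 CPM at 0 h (2.59 ± 0.19, adjusted p = 5.56e-09). In cumulus cells Maml3 averaged 26 CPM at 12 h, against 10.2 CPM at 0 h. Among the Groucho-type corepressors Tle3 and Tle4 rose and Tle2 fell at 4 h in both cell types. Tle3 reached 82.2 CPM in cumulus cells, against 9.78 CPM at 0 h, and 243 CPM in mural cells, against 54.4 CPM. At 12 h Tle2 was above 0 h in cumulus (1.56 ± 0.19, adjusted p = 1.13e-06) and below it in mural cells (-1.09 ± 0.18, adjusted p = 9.95e-05), and the changes differed by 2.65 ± 0.26 (adjusted p = 5.98e-07 by edgeR).

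Bhlhe40, a repressor related to the HEY proteins, rose at 4 h and stood higher still at 12 h, at 616 CPM in cumulus and 441 CPM in mural cells, against 49.9 and 22.8 CPM at 0 h. Dtx1, a ubiquitin ligase of the pathway, rose in mural cells at 4 h (3.38 ± 0.56, adjusted p = 8.78e-05 by edgeR) and stood lower in cumulus than mural cells then (-5.6 ± 0.66, adjusted p = 2.86e-06). Rbpj itself, named after its values were seen, fell at 4 h by 0.66 ± 0.09 in cumulus and by 0.49 ± 0.09 in mural cells (adjusted p = 1.67e-05 and 0.000338).

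The genes most like each member were sought by the root-mean-square difference of log2 levels over the 18 libraries, each gene centred on its own mean, among 14270 genes. To each level 0.5 CPM was added before the log2, which shrinks the changes of low genes. For Jag1 the most like were Rassf9, Il7 and Nptx1, at 0.396, 0.406 and 0.521. Of these Rassf9 and Nptx1 averaged 0.257 and 0.0287 CPM in cumulus cells at 0 h. Il7, a cytokine gene, averaged 70.1 CPM in cumulus and 46.3 CPM in mural cells at 4 h. For Notch2 they were Msi1, Pgap1 and Lrrc8c, at 0.249, 0.253 and 0.292. Msi1 encodes an RNA-binding protein that, in other tissues, is known to repress the Notch inhibitor Numb. It averaged 11.4, 90.7 and 90.5 CPM in cumulus and 22.7, 144 and 95.2 CPM in mural cells at 0, 4 and 12 h.

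For Hes1 the nearest genes were Gadd45b, Slc6a6 and Cebpb, at 0.267, 0.318 and 0.391. For Hey2 they were Paqr8, Arhgef28 and Klc2, at 0.281 to 0.292, and for Heyl Tuba8, Disc1 and Snrnp25, at 0.302 to 0.41. Jag2 was nearest to Kcnq1, Pdzd2 and Mb21d1, at 0.266 to 0.302, and Notch3 to Kctd12b, Selenop and Unc13d, at 0.331 to 0.376. Notch1 and Hey1 had no gene within 0.5, the nearest being Sema3b at 0.626 and Gtdc1 at 0.545. Nrarp was too low for this measure.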

How the data were processed

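RNA was measured by poly(A)-enriched, stranded mRNA sequencing of 18 libraries. The deposited table holds counts of unique gene reads, made by the authors with CLC Genomics Workbench at default parameters, per the series' design text, on GRCm38, per the submitters' processing notes. Whether counting used strand is not given in the sources used here, so reads of overlapping or antisense genes (at Notch1, Notch2, Notch3, Jag2 and Nrarp) cannot be told apart.

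Counts were filtered with filterByExpr (minimum count 10), which kept 19941 genes with 99.96% of counts, and scaled by TMM (0.849 to 1.177). edgeR 4.0.16 (R 4.3.3) fitted 1 quasi-likelihood model with 6 group means, tested 11 comparisons and adjusted p over all genes by Benjamini-Hochberg. The fit was tested on simulated data. Alternatives used DESeq2 1.42.0, other scaling, no filter, subsets of libraries, a replicate block and an oocyte covariate. A floor of 3 counts came to 0.0585 to 0.0999 CPM. Such floors take in counting error alone, and are too low if both reads of a pair were counted, which was not tested (low counts were even more often than odd). Nothing in the labels ties replicates to separate animals or pools. The p-values therefore reflect only how far these samples spread, and part of that spread may be technical. Replicates differed beyond sampling noise (chi-square at least 7.3 per degree of freedom). Positions and exon lengths came from GENCODE M21 and promoters from RefSeq. All members were named. Of the other pathway genes, changes were described mainly for some of those past the threshold with a log2 change of at least 1 and at least 5 CPM. A pathway gene that is not named may therefore have passed too. The members and lists were chosen with earlier results of these data known.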

Additional observations from a re-analysis of the deposited data

Results flagged for a closer look

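For 7 of the members the change after hCG differed between cumulus and mural cells by edgeR's test of the difference itself, cumulus minus mural, at 1 or both times. Of all genes tested 14.0% passed this test at 4 h and 40.1% at 12 h. The share of all genes that passed at either time was not counted. From 0 to 4 h the difference was 2.0 for Notch1, -3.35 for Hey1 and 3.55 for Nrarp on the log2 scale (adjusted p = 0.000433, 2.18e-05 and 0.0456). From 0 to 12 h it was 3.97 for Notch1, 2.83 for Jag1 and 1.77 for Notch2 (adjusted p = 8.64e-08, 2.81e-05 and 4.73e-06). It was -1.22 for Hey1, -3.12 for Jag2 and -1.49 for Hes1 over the same span (adjusted p = 0.0214, 0.000982 and 0.000166). The Nrarp difference at 4 h, at low counts, was lost in 13 of 20 alternatives. That of Jag2 at 12 h turned to 0.84 with the oocyte covariate and lost its call. The Hey1 difference at 12 h was lost in 5 of 20 alternatives. Among them were leaving out cumulus 0 h replicate 1, cumulus 12 h replicate 3 or mural 12 h replicate 1 (adjusted p = 0.0604, 0.0552 and 0.0717 by edgeR).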

How the results depend on the processing

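Of 75 member calls 51 stayed under the threshold in all alternatives, and of 35 results not called 18 gained a call in some. Sign was not part of that count. Jag2 in cumulus against mural cells at 12 h is among the 51, although it turned from -1.64 to 0.94 with the oocyte covariate. With the oocyte covariate 4 members passed in cumulus cells at 12 against 0 h and 2 at 12 against 4 h, where 7 did in each without it. The oocyte sums of cumulus cells at 12 h lie below those of all other libraries, so that covariate and that group can hardly be separated. With it these log2 values turned sign: Jag1 0.55 (cumulus 12 against 4 h), -0.19 and -0.022 (cumulus against mural at 0 and 4 h). So did Jag2 at 0.63, 0.49, 0.84 and -0.30 (cumulus 12 against 0 h and 4 h, difference of changes at 12 and 4 h) and 0.94 and -0.20 (cumulus against mural at 12 and 4 h). So did Notch1 at -1.72 and Notch2 at -0.56 (cumulus 12 against 4 h), Notch2 at -0.0041 (cumulus against mural at 12 h), Notch3 at -0.34 and -0.21 (cumulus 12 against 0 h, difference at 12 h), Nrarp at 0.098, 0.48 and -0.88 (cumulus 12 against 4 h, cumulus against mural at 12 and 4 h) and Hey2 at -0.46 (difference at 12 h). The cause was not tested.

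Without both libraries that stood apart, Heyl stood at 0.086 (cumulus 12 against 0 h), Jag2 at -0.16 and -0.30 (cumulus 4 against 0 h, difference at 4 h) and Notch1 at -0.087 (cumulus 12 against 4 h). Scaling by library totals shifted the all-gene median, for instance to -0.38 in mural cells at 4 against 0 h, where trimmed-mean scaling gave -0.06. With them Jag2 stood at -0.20 (mural 4 against 0 h), Notch1 at -0.022 (cumulus 12 against 4 h) and Hey2 at -0.044 (difference at 12 h). Hey2 there stood at -0.025 with both DESeq2 and its size factors. Notch3 in mural cells at 12 against 0 h stood at 0.0016 with those size factors, 0.0017 with DESeq2 and 0.0071 with no filter. Leaving out 1 library, values ran from -0.064 to 0.11 for Hey2 (difference at 12 h), -0.13 to 0.092 for Heyl and -0.57 to 2.12 for Nrarp (cumulus 12 against 0 h), -0.078 to 0.46 for Jag2 and -0.12 to 0.52 for Nrarp (mural 4 against 0 h), -0.12 to 0.33 for Notch1 (cumulus 12 against 4 h), -0.11 to 0.041 for Notch1 (cumulus against mural at 12 h) and -0.18 to 0.21 for Notch3 (mural 12 against 0 h). None of these was called in the main test except the Jag2 change in cumulus cells at 4 h.

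The labels do not say whether same-numbered replicates share animals. Of 27 same-numbered pairs 9 had a correlation over 0.1, and 15 correlated best with their own number. Between cumulus and mural cells, replicates 1 and 3 did so at 0 h (0.555 and 0.427). There all replicates did so at 4 h (0.0922 to 0.168) and at 12 h (0.00919 to 0.0256). The main test took no account of such a pairing. With the replicate block 3 of 110 member results lost their call: Jag1 in mural cells at 12 h (0.73, adjusted p = 0.0534 by edgeR), Jag2 in cumulus cells at 4 h (0.97, adjusted p = 0.058) and Notch3 in cumulus cells at 12 h (0.76, adjusted p = 0.0578).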
